A study of Oryza sativa Indica Group with 12 samples.

Results

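The genes described here are CIPK7, CIPK8, CIPK10, CIPK23 and CIPK29 of rice, which encode CBL-interacting protein kinases, together with the calcium sensor gene CBL1. A probe set (the group of short probes that reads 1 transcript on the array) was taken when the array annotation gave it 1 gene and the RefSeq record of that gene carried one of these names as symbol or synonym. The rule found 10 of the 57381 probe sets on the array, and these covered 5 of the 6 genes. CIPK10 had 4 probe sets, CIPK7 and CIPK23 had 2 each, CIPK8 and CIPK29 had 1 each, and none was assigned to CBL1, whose level is therefore not given. All 10 were kept at every level, without a filter on low values.

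CBL proteins (calcineurin B-like proteins) are small sensors that bind calcium and recruit CIPK kinases, often to a membrane, where the kinase phosphorylates ion channels and transporters. The best known pair in potassium nutrition is CBL1 with CIPK23, which activates the inward potassium channel AKT1 in Arabidopsis and in rice roots. In Arabidopsis, CBL9 acts beside CBL1 on CIPK23, and CIPK23 also phosphorylates the nitrate transceptor NRT1.1. Activation by calcium and phosphorylation are not visible on an expression array, which reads only transcript level.

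Seedlings of the indica cultivar IR64 were grown in hydroponic culture at 28 °C under 16 h of light and 8 h of darkness, and RNA was taken from whole seedlings without the seed. The 0h group was sampled after 5 days of normal growth. Of the seedlings moved on for 5 more days, the KP group received 0.409 mM K2SO4 and the KM group none, and the KR group was KM returned to 0.409 mM K2SO4 for 6 h. Each group had 3 arrays from biological replicates, 12 in all. The treatment tag of the 0h arrays reads as potassium-free medium while title and source name read as 0h, and the latter were followed. All values are log2 of the deposited GCRMA intensity (a background-corrected probe summary), on which 1 unit is 2-fold, and array medians were 2.70 to 2.75 in 0h, KP and KM and 2.79 to 2.84 in KR. A change was called at an adjusted p under 0.05 (limma over 57194 probe sets, Benjamini-Hochberg) with at least a 2-fold difference, and ± after a change is its standard error with n = 3 arrays per group. That error pools the spread of all 12 arrays, so a group outside a comparison can widen it.

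After 5 days without potassium, 3 of the 10 probe sets were lower than with potassium, namely those of CIPK29 and CIPK8 and 1 of the pair for CIPK7. None was called higher, and 7 were not called. Over all tested probe sets 2.55% were called between KM and KP, 1.59% as lower and 0.955% as higher. With dim probe sets left out, 981 of 28597 were called lower and 585 higher, which are larger shares. The KM and KP arrays did not overlap at 5 of the 10, beside 23.7% of all probe sets. These kinases were among the genes that the study itself picked out on these same arrays, so the count is a description and not independent evidence. The median change of the 10 was -0.01, beside -0.00 over all probe sets tested. Because whole seedlings were profiled, fewer cells of a type and less RNA per cell cannot be told apart.

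CIPK29 gave the sharpest contrast between the media. Its probe set (Os.17787.1.S1_at, RefSeq gene 4344285) read 5.09, 5.09 and 5.25 at 0h. The KP arrays read 5.11, 4.76 and 4.67, the KM arrays 3.02, 3.06 and 3.25, and the KR arrays 4.79, 4.90 and 4.76. Every KM array lay below every other array, and the other 3 groups lay within a narrow band. CIPK29 was 3.33-fold lower in KM than in KP (log2 change -1.74 ± 0.11, adjusted p = 3.39e-05) and 3.26-fold higher in KR than in KM (1.71 ± 0.11, adjusted p = 3.15e-05). Against 0h the KM level was 4.09-fold lower (-2.03 ± 0.11, adjusted p = 1.23e-06). KR and KP differed by -0.03 with a 95% interval of -0.29 to 0.22 (adjusted p = 0.839), and KP and 0h by -0.29 ± 0.11 (adjusted p = 0.0937). The KM intensities were close to the array median, so the fold is sensitive to how low values are treated. With 16 added to each intensity before the logarithm the changes were -0.86 for KM against KP and 0.84 for KR against KM, under the 2-fold threshold, with adjusted p of 0.000162 and 0.000126.

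CIPK8, which in Arabidopsis takes part in the response to nitrate, followed another course. The probe set Os.41019.1.S1_at (gene 4326419) read 7.41, 7.51 and 6.97 at 0h and 8.31, 8.23 and 8.40 in KP. Without potassium it read 7.29, 7.33 and 7.25, and after resupply 7.49, 7.52 and 7.61. The KP arrays stood above all the others, while KM and 0h overlapped. The level in KM was 2.04-fold lower than in KP (-1.03 ± 0.12, adjusted p = 0.000866). It lay just past the 2-fold threshold, and the call was lost without KP replicate 3 (-0.98) or with 16 added to each intensity (-0.96). CIPK8 rose 2.02-fold from 0h to KP (1.02 ± 0.12, adjusted p = 0.000144), a call lost without 0h replicate 3 (0.85), without KP replicate 3 (0.97) or with 16 added (0.95). KM against 0h gave -0.01 with an interval of -0.28 to 0.26. Unlike the CIPK29 values, those of CIPK8 in KR remained below those in KP on every array (-0.77 ± 0.12, adjusted p = 0.00135, 1.71-fold). The step from KM to KR was 0.25 ± 0.12 and did not pass the test (adjusted p = 0.112), though every KR array lay above every KM array. The SD was 0.29 at 0h but 0.04 in KM and 0.06 in KR, so the spread at 0h widened this standard error.

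**Figure D1:**
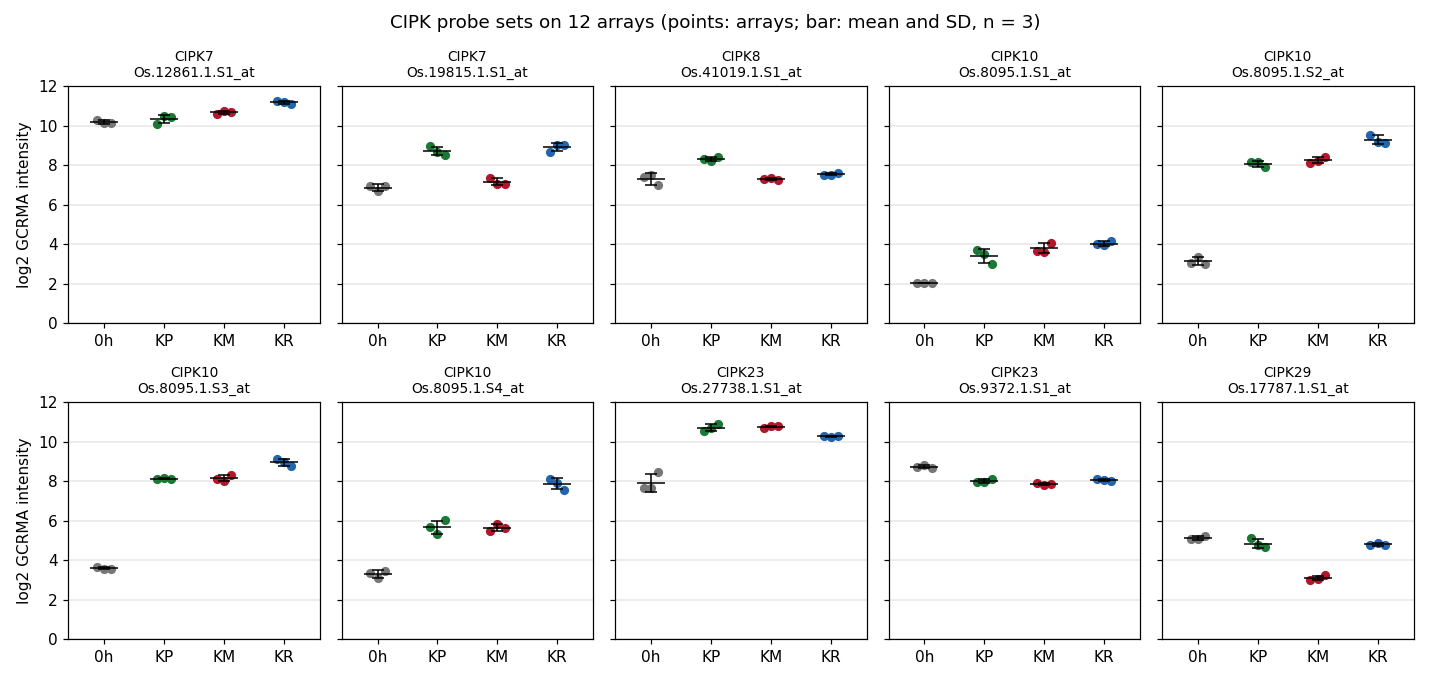
Level of the 10 CIPK probe sets (log2 GCRMA intensity, y axis) in the 4 groups, with a point per array and a bar for the mean and SD of 3 arrays. CIPK29 fell to 3.02 to 3.25 in KM, CIPK8 stood highest in KP, and the probe sets of CIPK7 and of CIPK23 differed in their course.

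For CIPK7, a kinase linked to cold tolerance in rice, the answer depended on the probe set. Both Os.12861.1.S1_at and Os.19815.1.S1_at are assigned to RefSeq gene 4333514. The dimmer one, Os.19815.1.S1_at, read 6.95, 6.69 and 6.96 at 0h, 8.95, 8.66 and 8.53 in KP, 7.36, 7.07 and 7.03 in KM and 8.67, 9.01 and 9.03 in KR. KP and KR overlapped at the upper level, and the KM and 0h arrays stayed at the lower one. This probe set was 2.95-fold lower in KM than in KP (-1.56 ± 0.15, adjusted p = 0.000277), 3.37-fold higher in KR than in KM (1.75 ± 0.15, adjusted p = 0.000104) and 3.59-fold higher in KP than at 0h (1.84 ± 0.15, adjusted p = 1.22e-05). KR against KP gave 0.19 with an interval of -0.14 to 0.52 (adjusted p = 0.320).

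The brighter probe set, Os.12861.1.S1_at, read 10.28, 10.16 and 10.11 at 0h, 10.08, 10.47 and 10.43 in KP, 10.60, 10.75 and 10.71 in KM and 11.25, 11.22 and 11.08 in KR. Every KM array lay above every KP array, the reverse of the other probe set. The change from KP to KM was 0.36 ± 0.10 (adjusted p = 0.0592), and KR exceeded KM by 0.50 ± 0.10 (adjusted p = 0.00497) and KP by 0.86 ± 0.10 (adjusted p = 0.000459), each under 2-fold. Both members of the pair read higher on every KR array than on any KM array. Per array, the brighter minus the dimmer probe set averaged 1.62 in KP, 3.54 in KM, 2.28 in KR and 3.32 at 0h. Their changes from KP to KM therefore differed by 1.92 on the log2 scale, and the arrays of KP and KM did not overlap in this difference. The two-sided exact permutation test gave p = 0.1, the smallest that 3 against 3 arrays allow. The RefSeq record of this gene also lists the names TATA and THA4, which elsewhere denote a subunit of the thylakoid twin-arginine translocase. Which transcript each probe set reads was not tested. The annotation used in the study placed the dimmer one on the kinase locus.

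**Figure D2:**
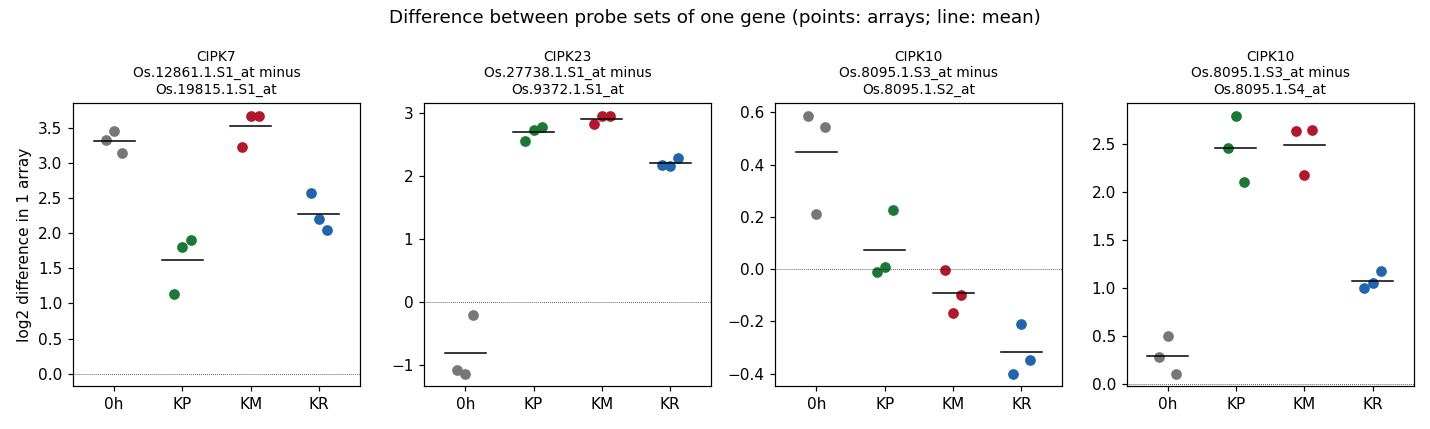
Log2 difference between probe sets assigned to one gene (y axis) in each array of the 4 groups, with a line at the group mean. The CIPK7 pair was 1.62 apart in KP and 3.54 apart in KM, and the difference for the CIPK23 pair moved from -0.81 at 0h to 2.70 in KP.

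CIPK23, the kinase that activates AKT1, was not called between KM and KP at either probe set. Its brighter probe set Os.27738.1.S1_at (gene 4342410) read 7.66, 7.68 and 8.46 at 0h, 10.54, 10.71 and 10.91 in KP, 10.73, 10.78 and 10.82 in KM and 10.28, 10.24 and 10.32 in KR. KP and KM overlapped, and their difference was 0.06 with an interval of -0.38 to 0.49. Both media gave a much higher level than 0h, by 6.91-fold in KP (2.79 ± 0.19, adjusted p = 4.96e-06) and 7.18-fold in KM (2.84 ± 0.19, adjusted p = 3.87e-06). Of the 0h arrays, replicate 3 stood above the other pair, and without it the rise to KP was 3.05. All KR arrays lay below all KM arrays, but the change of -0.50 ± 0.19 did not pass the test (adjusted p = 0.0601). The SD was 0.45 at 0h but 0.04 in KM and 0.04 in KR, so the spread at 0h widened this standard error.

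The other CIPK23 probe set moved the opposite way from 0h to KP and KM. Os.9372.1.S1_at read 8.75, 8.81 and 8.66 at 0h, 7.97, 7.98 and 8.13 in KP, 7.90, 7.83 and 7.85 in KM and 8.10, 8.08 and 8.03 in KR. It was highest at 0h on every array, 1.64-fold above KP (change from 0h -0.71 ± 0.05, adjusted p = 5.81e-06) and 1.84-fold above KM (-0.88 ± 0.05, adjusted p = 1.53e-06), both under the 2-fold threshold. KM against KP gave -0.16 ± 0.05 (adjusted p = 0.0796), though every KM array lay below every KP array. KR exceeded KM by 0.21 ± 0.05 (adjusted p = 0.0102), under 2-fold, and every KR array lay above every KM array. From KM to KR the change of the brighter probe set minus that of this one was -0.70, at the smallest exact p of 0.1. The changes of the pair from 0h to KM differed by 3.72, again at the smallest exact p of 0.1. Over the 12 arrays the pair had a Pearson r of -0.97, and over the 9 arrays after transfer -0.49. The RefSeq record joins a pair of older clone-based gene names under CIPK23, and which of them each probe set reads was not tested.

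CIPK8 and a probe set of CIPK7 were called higher than at 0h in KP only, and a probe set of CIPK23 in both KP and KM. CIPK10 too was higher in both, and some of its probe sets were called higher again on resupply. Its 4 probe sets (gene 4332786, Os.8095.1.S1_at to S4_at) differed in brightness, and S1_at stayed between 2.02 and 4.16 on all arrays. The brightest, S3_at, read 3.65, 3.59 and 3.56 at 0h, 8.14, 8.16 and 8.13 in KP, 8.12, 8.02 and 8.31 in KM and 9.14, 8.98 and 8.76 in KR. S2_at read 3.07, 3.37 and 3.01 at 0h, 8.15, 8.15 and 7.91 in KP, 8.13, 8.19 and 8.41 in KM and 9.54, 9.19 and 9.11 in KR. On S2_at and S3_at, KP and KM overlapped and KR lay above both.

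All 4 CIPK10 probe sets were called higher in KP than at 0h. The rise was 30.3-fold for S2_at (4.92 ± 0.14, adjusted p = 7.39e-08), 23.4-fold for S3_at (4.55 ± 0.09, adjusted p = 1.90e-08), 5.21-fold for S4_at and 2.59-fold for S1_at. Since the 0h intensities were near the array median, these folds depend on the background correction. With 16 added to each intensity the S2_at rise was 3.52, and that of S1_at was 0.41, no longer called. Without potassium all 4 were likewise called higher than at 0h (1.76 to 5.09). KM against KP ranged from -0.02 to 0.39, and none of the 4 was called.

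Resupply moved the CIPK10 probe sets by unequal amounts. S4_at read 3.37, 3.09 and 3.45 at 0h, 5.68, 5.36 and 6.02 in KP, 5.49, 5.84 and 5.66 in KM and 8.14, 7.93 and 7.59 in KR. It rose 4.67-fold from KM to KR (2.22 ± 0.20, adjusted p = 0.000126), and every KR array exceeded every other array. S2_at rose 2.05-fold (1.03 ± 0.14, adjusted p = 0.000769), a call lost without KM replicate 1 (0.98), without KR replicate 1 (0.91), with arrays set to equal medians (0.94) or with 16 added (0.997). S3_at rose 1.75-fold (0.81 ± 0.09, adjusted p = 0.000440), which was under the fold threshold, and the dim S1_at gave 0.25 ± 0.18 (adjusted p = 0.279). Relative to seedlings never deprived, S4_at was 4.59-fold higher in KR (2.20 ± 0.20, adjusted p = 0.000129) and S2_at 2.31-fold higher (1.21 ± 0.14, adjusted p = 0.000422). S2_at and S3_at had a Pearson r of 0.998 over the 12 arrays, and S4_at had 0.91 with S2_at and 0.90 with S3_at.

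Counted over the 10 probe sets, 4 were called higher in KR than in KM and none lower: S2_at and S4_at of CIPK10, Os.19815.1.S1_at of CIPK7 and CIPK29. Of all tested probe sets 1.75% were called higher, 2.06% lower and 3.82% in either direction. With dim probe sets left out, 1009 of 28597 were called higher and 1185 lower. The groups did not overlap at 9 of the 10, beside 64.3% of all probe sets, so separate KR and KM arrays were common. The median change of the 10 was 0.65, beside 0.04 over all. As 4 of the 10 read CIPK10, the counts and the median weight that gene most. CIPK7, CIPK8 and CIPK29 were also picked out by the study on these arrays, so these figures describe and are not independent evidence. No source gives the time of harvest, so if KR was taken later than KM, 6 h of potassium and 6 h of the day cannot be told apart. KR against KP called 2 of the 10, both probe sets of CIPK10 and both higher, where 1.15% of all probe sets were called higher, 2.06% lower and 3.2% in either direction.

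From 0h to KP, 7 of the 10 were called higher and none lower, beside 5.88% higher, 5.72% lower and 11.6% in either direction over all probe sets. They were all 4 of CIPK10, Os.27738.1.S1_at of CIPK23, Os.19815.1.S1_at of CIPK7 and CIPK8. From 0h to KM, 5 were called higher and 1 lower, beside 6.2% and 5.94% of all probe sets and 12.1% in either direction. The 5 were those of CIPK10 and CIPK23 named before, and the 1 was CIPK29. KP and KM were set against the same 0h arrays, and KM enters the comparisons with KP and with KR, so these counts share arrays. With dim probe sets left out, 3394 of 28597 were called higher and 3279 lower from 0h to KP, and 3565 and 3419 from 0h to KM. As the time of harvest is not given, 5 days of growth and time of day cannot be told apart.

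**Figure D3:**
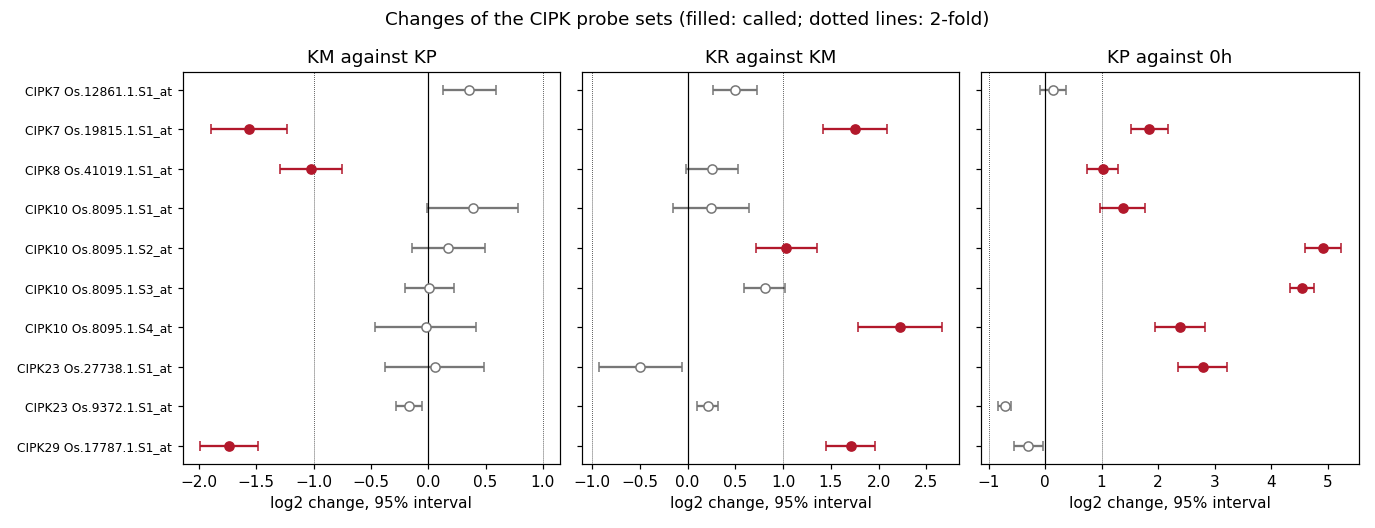
Log2 change of the 10 CIPK probe sets (x axis) with its 95% interval in 3 comparisons, with called changes as filled points and 2-fold as dotted lines. CIPK29 lay at -1.74 for KM against KP and at 1.71 for KR against KM, and the CIPK10 probe sets lay between 1.37 and 4.92 for KP against 0h.

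Of the other members of the family, RefSeq names 33 CIPK and CBL genes, and 26 of them had a probe set, 19 for CIPK and 7 for CBL genes. For each gene the probe set with the highest mean was taken. Between KM and KP, 1 of the 26 was called, beside 2.55% of all probe sets tested. It was CBL4, called lower, a sensor whose Arabidopsis counterpart, SOS3, works with the kinase CIPK24 in salt tolerance. The study lists the same CBL4 probe set as lower in KM on these arrays, so the call is not independent evidence. CBL4 read 5.09, 5.18 and 5.04 in KP and 3.32, 3.55 and 3.44 in KM, a change of -1.66 ± 0.13 (adjusted p = 0.000101). In KR it read 3.46, 3.74 and 3.96, which overlapped KM and stayed below KP (-1.38 ± 0.13, adjusted p = 0.000166). The CBL4 values in KM and KR lay near the array median, so both folds depend on the background correction. CIPK8 also stayed below KP in KR, but its KR arrays did not overlap KM. CIPK24 read 7.80 to 7.93 in KP and 7.80 to 8.08 in KM, and it was called in none of the 5 comparisons. CBL9 read 4.96, 4.95 and 4.86 in KP and 5.57, 5.91 and 5.55 in KM. Its change of 0.76 was the highest of the 7 CBL genes but was not called. The CBL9 probe set is of a kind that may also read similar transcripts.

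In KR against KM the called probe sets of CIPK7, CIPK10 and CIPK29 were all higher. Of the 26, however, 3 were called lower and none higher, beside 2.06% and 1.75% of all probe sets. The 3 were CIPK25 (-1.95 ± 0.28, adjusted p = 0.00103), CIPK5 (-1.47 ± 0.29, adjusted p = 0.00435) and CIPK18 (-1.04 ± 0.21, adjusted p = 0.00498). CIPK25 lay between 9.42 and 10.03 in KM and between 7.76 and 7.93 in KR. CIPK5 lay between 7.48 and 7.87 in KM and between 5.99 and 6.66 in KR. In KR against KP, CIPK25 (-2.09), CIPK5 (-1.17) and CBL4 were called lower and none higher, beside 2.06% and 1.15% of all probe sets. The median change of the 26 from KM to KR was -0.07, beside 0.04 over all probe sets. No test compared the 2 lists, and they follow unlike rules: the 26 stand by their brightest probe set, the kinases by every probe set. By the brightest probe set alone, CIPK29 was called, while CIPK7 (0.50), CIPK8 (0.25), CIPK10 (0.81) and CIPK23 (-0.50) were not. The study had also picked out CIPK7, CIPK8 and CIPK29 on these same arrays, and it lists the CBL4 probe set as lower in KM too.

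From 0h to KP, 6 of the 26 were called higher and 3 lower, beside 5.88% and 5.72% of all probe sets. CIPK5 rose most among them, with 2.78 to 3.48 at 0h and 7.11 to 8.03 in KP (4.33 ± 0.29, adjusted p = 4.54e-06). Its 0h values, like those of CBL9 (mean 3.39), lay near the array median, so both rises depend on the background correction. The others that rose were CIPK25 (2.18), CBL9 (1.53), CBL4 (1.42), CIPK1 (1.33) and CIPK14 (1.00), and those that fell were CIPK18 (-1.50), CIPK21 (-1.47) and CIPK6 (-1.09). From 0h to KM, 5 rose, namely CIPK5 (4.63), CBL9 (2.29), CIPK25 (2.04), CIPK14 (1.41) and CIPK32 (1.40), and 3 fell, namely CIPK21 (-2.37), CIPK26 (-1.31) and CIPK18 (-1.08). Over all probe sets 6.2% were called higher and 5.94% lower in that comparison. For CIPK14, CIPK18 and CIPK25, as for CIPK23, replicate 3 at 0h stood apart from the other pair. CIPK14 lay at the 2-fold threshold in KP against 0h, and its change was 1.29 without that array and 0.89 and 0.82, no longer called, without 0h replicate 1 and 0h replicate 2. The call of CIPK18 in KM against 0h was likewise lost without 0h replicate 1 (-0.94) or 0h replicate 2 (-0.95).

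**Figure D4:**
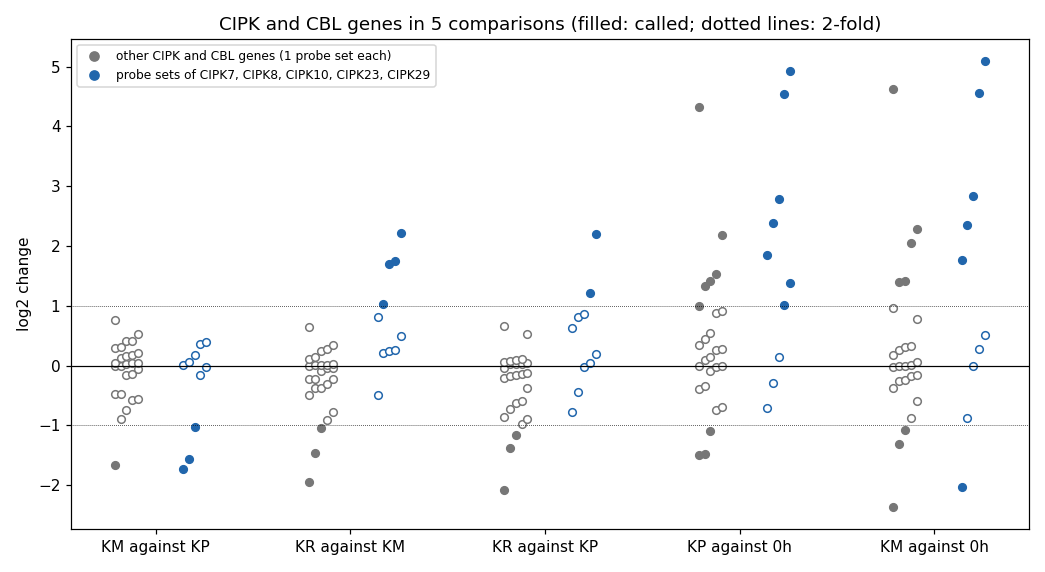
Log2 change (y axis) of the 26 other CIPK and CBL genes in grey and of the 10 probe sets of CIPK7, CIPK8, CIPK10, CIPK23 and CIPK29 in blue, in 5 comparisons, with called changes filled. For KR against KM the called blue points are all above 0 and the called grey points all below it. Grey shows only the brightest probe set of each gene, and blue shows every probe set.

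Of 8 known or proposed targets of CBL-CIPK pairs, 4 had a probe set. AKT1, the channel activated by CIPK23, read 6.54, 6.35 and 6.33 in KP, 6.93, 7.27 and 7.06 in KM and 7.28, 6.99 and 7.28 in KR. It was higher in KM than in KP on every array (0.68 ± 0.12, adjusted p = 0.00743), under 2-fold and so not called. Its probe set is of a kind that may also read similar transcripts. The ammonium transporter gene AMT1;1, whose Arabidopsis counterpart is inhibited by CIPK23, read 8.58, 8.63 and 8.59 in KP and 6.84, 6.93 and 6.59 in KM and was called lower (-1.81 ± 0.14, adjusted p = 0.000104). In KR it read 7.38, 7.28 and 7.84, between the levels of KM and KP. The study lists this AMT1;1 probe set as lower in KM on these same arrays, so the call is not independent evidence. HAK1 and HAK5, potassium transporters of the high-affinity class, had 2 probe sets each. The brighter one of HAK5, which stood for the gene in the counts, read 12.11, 12.24 and 12.24 in KP and 12.33, 12.31 and 12.45 in KM and was called in none of the 5 comparisons. Its dimmer one read 3.02, 3.30 and 3.33 at 0h, 5.54, 5.34 and 4.73 in KP, 6.64, 7.06 and 7.10 in KM and 6.12, 5.34 and 5.78 in KR. At this probe set the KM arrays stood above all others. It was called higher in KM than in KP (1.73 ± 0.25, adjusted p = 0.00276), lower in KR than in KM (-1.19 ± 0.25, adjusted p = 0.00575) and higher than at 0h in both KP (1.99) and KM (3.72). Its 0h values lay near the array median, so the folds against 0h depend on the background correction. Of HAK1, the brighter probe set was called higher than at 0h in KM (1.73 ± 0.32, adjusted p = 0.00249) and the dimmer in both KP (1.47 ± 0.19, adjusted p = 0.000297) and KM (2.20 ± 0.19). The brighter one read 7.75, 7.57 and 9.07 at 0h, and without 0h replicate 3 it was called in KP as well (1.46). Neither was called between KM and KP or between KR and KM, though at both every KM array lay above every KP and KR array. KM against KP gave 0.74 ± 0.32 at the brighter (adjusted p = 0.246) and 0.73 ± 0.19 at the dimmer (adjusted p = 0.0454). KR against KM gave -0.41 ± 0.32 (adjusted p = 0.323) and -0.81 ± 0.19 (adjusted p = 0.00999), all under 2-fold. At the brighter HAK1 probe set the SD was 0.82 at 0h but 0.06 in KP, 0.12 in KM and 0.03 in KR. The spread at 0h therefore widened its standard error in both comparisons. The study, with its own test and a 1.5-fold threshold, reported the brighter HAK1 probe set as higher in KM than in KP. Which transcript each of these probe sets reads was not tested.

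Summed markers of organs moved between the groups in which these kinases moved. The 5 leaf marker genes with a probe set, of 9 in the list, summed to intensities of 43820 to 47758 in KP, 30242 to 31190 in KM, 44294 to 44868 in KR and 34245 to 36538 at 0h. KM was the lowest group in this sum, as it was for CIPK29. The 7 root marker genes with a probe set, of 11, summed to 7763 to 13191 in KP, 3783 to 5110 in KM, 7281 to 8003 in KR and 2951 to 3107 at 0h, an order in which 0h lay lowest. The sums follow their brightest members. Of the leaf markers GLK1 (-3.16), RCA (-1.21) and PORB (-1.05) were called lower in KM than in KP, CAB2R changed by -0.76, and RBCS gave 0.16 and was not called. Of the root markers NAS1 (-3.23) and the aquaporin genes TIP2;1 (-2.01) and PIP2;5 (-1.50) were called lower, while LSI1, LSI2, SHR1 and IRT1 were not called (-0.96 to 0.01). None of the leaf markers had a group mean close to the array median, and of the root markers the iron transporter gene IRT1 did in all groups and NAS1 in KR. The 6 clock genes with a probe set, of 11 names, summed to 5553 to 6065 in KP, 4304 to 4629 in KM, 7975 to 8618 in KR and 3590 to 4168 at 0h. That sum hides opposite courses. The morning gene CCA1 averaged 11.46 at 0h and 10.94 in KP but 6.22 in KM and 6.65 in KR, a change of -4.71 ± 0.18 from KP to KM (adjusted p = 1.59e-06). PRR95 was called lower in KM than in KP (-1.09) and higher in KR than in KM (2.84), and GI, PRR1, PRR37 and PRR73 changed by 0.02 to 0.74 from KP to KM with none called. From 0h to KP, 3 of the 6 clock genes were called higher and none lower, beside 5.88% and 5.72% of all probe sets. GI averaged 6.23 at 0h and 10.47 in KP. The part of leaf or root share, and of time of day, in the changes of CIPK7, CIPK8, CIPK10, CIPK23 and CIPK29 was not tested, and this holds for their changes from 0h too.

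To place each kinase among other transcripts, the 3 named genes with the highest Pearson r over the 12 arrays were taken for its brightest probe set. Only 95 candidate probe sets carried a gene symbol. Among these, CIPK10 lay nearest to HIRL1 (r = 0.99) and CIPK23 to TGA2.2, a bZIP transcription factor (r = 0.99). CIPK29 came nearest to the calcium-dependent kinase gene CPK13 (r = 0.82), CIPK8 to a probe set of the heat shock factor HSFA2D (r = 0.89) and CIPK7 to PRX112 (r = 0.82). That HSFA2D probe set averaged 7.15 in KP and 3.99 in KM. Another probe set of HSFA2D averaged 10.75 in KP and 11.29 in KM and was among the 3 nearest to CIPK23 (r = 0.96). When RefSeq synonyms also counted as names, a choice made after the data were seen, 2700 candidate probe sets were available. These values describe likeness over 4 groups of 3 arrays and carry no test.

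With that wider set CIPK29 was nearest to CAO, the chlorophyllide a oxygenase that makes chlorophyll b (r = 0.98), CLA1, the first enzyme of the plastid isoprenoid pathway (r = 0.97), and CHLP, the reductase that makes the phytyl tail of chlorophyll (r = 0.97). CAO read 10.26, 10.30 and 10.35 in KP, 7.29, 7.31 and 7.20 in KM and 10.28, 10.56 and 10.49 in KR. As for CIPK29, its KM arrays were the lowest, and KP and KR overlapped. From KP to KM, CAO fell by 3.04, CLA1 fell by 2.17 and CHLP fell by 1.90.

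**Figure D5:**
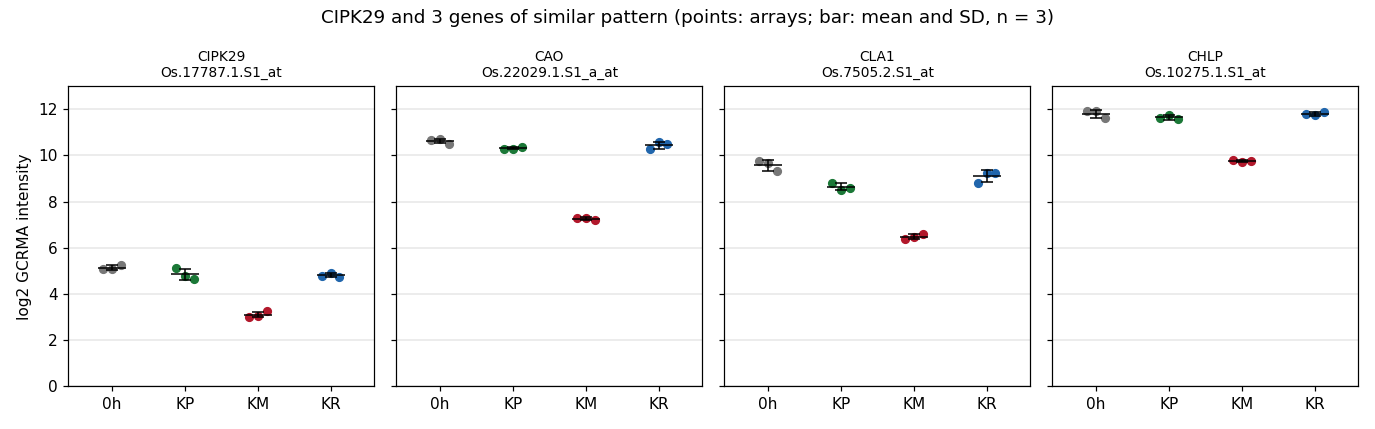
Level (log2 GCRMA intensity, y axis) of CIPK29, CAO, CLA1 and CHLP in the 4 groups, with a point per array and a bar for the mean and SD of 3 arrays. In each panel the KM arrays are the lowest, from 3.02 to 3.25 for CIPK29 and from 7.20 to 7.31 for CAO.

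CIPK8 was nearest to the beta-glucosidase gene BGLU22 (r = 0.96), to a probe set of RCA, the activase of Rubisco (r = 0.96), and to CBL4 (r = 0.95). All 3 of these probe sets were called lower in KM than in KP, by -2.48 for BGLU22, -1.21 for RCA and -1.66 for CBL4. The dimmer CIPK7 probe set was nearest to GRXC1, a glutaredoxin (r = 0.95), NIN3, a neutral invertase (r = 0.95), and NIA1, a nitrate reductase (r = 0.94), whereas the brighter one was nearest to MSRA5 and DAHPS2 (each r = 0.97), so the pair shared none of the 3 nearest. NIA1 read 12.62, 12.77 and 12.48 in KP, 10.79, 10.60 and 10.54 in KM and 12.06, 12.25 and 11.81 in KR. The brighter CIPK23 probe set lay nearest to salT, a lectin gene (r = 0.99), and the other to KIN14E, a kinesin (r = 0.99). S2_at and S3_at of CIPK10 both had LIR1, a light-regulated transcript, and NRAMP4 among their 3 nearest (r from 0.995 to 0.997), and S4_at had the clock gene PRR73 (r = 0.98). Over the 9 arrays without 0h, 2 of the 15 genes named by symbol and 1 of the 15 named with synonyms, CAO for CIPK29, stayed among the nearest 3.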

How the data were processed

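All 12 arrays were used, 3 biological replicates each of 0h, KP, KM and KR, grouped by title and source name. RNA (500 ng per array) was hybridized to the Affymetrix rice array. Scans were made with GCOS 1.2.1 according to the submitters' processing notes, and the authors then applied GCRMA in ArrayAssist, which subtracts a modelled background and so makes low values and their folds uncertain. The deposited intensity of each probe set is that GCRMA value before any logarithm. No columns of other series were present. Raw scans, sequences were not used here.

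Log2 was taken without a floor. After 187 control probe sets were left out, 57194 were tested with limma 3.58.1 in R 4.3.3 (1 mean per group over 12 arrays, 5 comparisons, Benjamini-Hochberg over all). The fit was tested on simulated data. Probe sets of one gene were compared per array by 8 pairs and 40 two-sided exact permutation tests, of which 32 reached the smallest possible p of 0.1 and none an adjusted p under 0.125. The named genes were all probe sets of the kinases, the other CIPK and CBL genes and targets called in some comparison, and the 3 nearest genes by Pearson r. AKT1, CIPK24, CIPK2, the organ and clock markers and the second probe sets of HAK1 and HAK5 were named after their values were seen. RefSeq (assembly ASM3414082v1) supplied names and the order of neighbouring genes. Genes and lists were chosen with earlier results of these data known. Alternatives were quantile normalization, equal array medians, an added 16, the methods' t-test, only the compared arrays, a filter on dim probe sets, a 1.5-fold threshold, an intensity trend, a replicate block and leaving out each array.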

Additional observations from a re-analysis of the deposited data

How the results depend on the processing

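Counts of called probe sets changed by over 1.5 times in 3 cases. With 16 added to each intensity, KM against KP called 1 of the 10 in place of 3 and KR against KM 2 in place of 4, and with a 1.5-fold threshold KR against KP called 6 in place of 2. Leaving out 1 array gave 2 to 3 for KM against KP, 3 to 4 for KR against KM, 2 for KR against KP, 6 to 7 for KP against 0h and 6 for KM against 0h. The difference between the CIPK7 probe sets in KM against KP was 1.68 to 2.07 in the same way. Same-numbered arrays did not deviate together (3 of 18 pairs above r = 0.1), and the replicate block kept the counts at 3, 4, 2, 7 and 6. Signs turned only for changes that were not called. For KM against KP these were S3_at of CIPK10 (-0.00041 with equal medians, -0.072 to 0.073 when 1 array was left out), S4_at (-0.19 to 0.14 in the same way) and Os.27738.1.S1_at of CIPK23 (-0.035 to 0.15). For KR against KP they were Os.9372.1.S1_at of CIPK23 (-0.060 with equal medians) and CIPK29 (0.024 with quantile normalization, -0.12 to 0.10 when 1 array was left out). For KM against 0h it was CIPK8 (0.024 with quantile normalization, -0.17 to 0.096 when 1 array was left out). The cause was not tested. The number of arrays limits the precision, and CIPK29 in KM and CIPK10 at 0h lie near background. So do CIPK5, CBL9 and the dimmer HAK5 probe set at 0h, and CBL4 in KM and KR.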

Other observations

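In RefSeq no protein-coding gene lies between CIPK29 and CIPK2, another kinase of the family, which had 3 probe sets. The brightest of them read 9.71, 9.66 and 9.70 in KP and 9.89, 9.69 and 9.87 in KM, so the groups overlapped where those of CIPK29 were well separated. A second CIPK2 probe set read 8.47, 8.16 and 8.21 in KP and 8.13, 7.48 and 7.80 in KM. There every KM array lay below every KP array, as for CIPK29, but the change of -0.48 ± 0.17 did not pass the test (adjusted p = 0.135). The last stayed between 2.43 and 3.11 on all arrays, and its KM arrays also lay below its KP arrays (-0.20, adjusted p = 0.458). CIPK2 was named after its values were seen.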
